A study of Mus musculus with 2 samples.

Results

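Sox genes encode transcription factors that share an HMG box, a DNA-binding domain that contacts the minor groove and bends the helix. Sequence similarity sorts them into subgroups whose members often act in the same lineage: SoxB1 in neural progenitors, SoxC in many progenitor cells, SoxD with SoxE in cartilage, SoxE also in neural crest and glia, and SoxF in vascular endothelium. Sox9 with Sox5 and Sox6 drives chondrocyte differentiation, Sox10 marks Schwann cells and Sox18 marks endothelium. The genes described here were chosen by symbol as Sox2, Sox4, Sox5, Sox6, Sox8, Sox9, Sox10, Sox11, Sox17 and Sox18, each with a row of its own. They are 10 of the 35798 rows of the deposited table and 10 of its 20 Sox-family rows, and 0 rows naming several genes hold a Sox gene.

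RNA was sequenced from mouse bone marrow cells sorted as free of CD45, CD31 and Ter119, surface proteins of blood and endothelial cells, and as positive for GFP under nestin regulatory sequence, which marks perivascular stroma. The JAK2 V617F library came from adult C57BL/6 mice of genotype Nes-gfp;Mx1-cre;JAK2-V617F, in which the interferon-responsive Mx1 promoter drives Cre, and JAK2 V617F is an activating kinase mutation that causes myeloproliferative disease. The control library came from adult C57BL/6 littermates labelled Nes-gfp, with neither Mx1-cre nor JAK2-V617F in the label, so Cre and the mutation cannot be told apart. Both groups received pIpC, a synthetic double-stranded RNA that induces interferon and so Mx1-cre, and cells were sorted 6 weeks later. Each library held cells of 3 pooled animals, with 1 library per group, so no value below has a replicate error and no test between genotypes is possible. Levels are FPKM, in which the fragments of a gene are divided by its length and by library depth. Differences are log2((JAK2 V617F FPKM + 1)/(control FPKM + 1)), called higher or lower at 2-fold, which is 1 on this scale.

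The label of the cells was checked against its markers. Cxcl12, the main stem cell retention chemokine of stroma, was at 694 FPKM in JAK2 V617F and 891 FPKM in control cells. Of 15 measured mesenchymal stromal markers, 14 lay within 2-fold. Over all rows at 1 FPKM or more in a library, 13.8% were called higher and 11.4% lower, and likeness between the libraries does not by itself identify the cells. The largest log2 ratios among the stromal markers were 1.56 for Mcam, 0.97 for Thy1, -0.67 for Ebf3 and -0.65 for Pdgfra. Nes itself was at 3.00 FPKM in JAK2 V617F and 4.84 FPKM in control cells. Transcripts of cells that the sort should remove were also present. Pecam1, which encodes CD31, was at 19.0 FPKM in JAK2 V617F and 17.1 FPKM in control cells. Ptprc, which encodes CD45, was at 8.79 FPKM in JAK2 V617F and 5.38 FPKM in control cells. Jak2 was at 29.9 FPKM in JAK2 V617F and 24.5 FPKM in control cells, a value that does not check the genotype because it cannot separate the mutant from the normal transcript. The FPKM denominators, estimated from the steps of low values, were about 6160000 fragments for the JAK2 V617F library and 5280000 for the control library. In these sorted pools, fewer cells of a type and less RNA per cell cannot be told apart.

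The HMG box sequences below show how the subgroups differ and how far reads of one member could be taken for another. Each is 210 bases of coding strand from a GENCODE vM21 transcript (GRCm38), read 5′ to 3′ from the codons of the conserved arginine-proline-methionine-asparagine-alanine-phenylalanine motif. Letters in upper case mark bases that differ from Sox9. Sox9, Sox8 and Sox10 are the whole SoxE subgroup, Sox6 is the most abundant member, and Sox18 and Sox2 are the members called lower.
Sox9: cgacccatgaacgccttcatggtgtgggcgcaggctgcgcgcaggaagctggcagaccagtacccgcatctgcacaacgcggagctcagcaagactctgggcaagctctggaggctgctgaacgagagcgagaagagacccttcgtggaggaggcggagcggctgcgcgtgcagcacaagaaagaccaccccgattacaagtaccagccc
Sox8: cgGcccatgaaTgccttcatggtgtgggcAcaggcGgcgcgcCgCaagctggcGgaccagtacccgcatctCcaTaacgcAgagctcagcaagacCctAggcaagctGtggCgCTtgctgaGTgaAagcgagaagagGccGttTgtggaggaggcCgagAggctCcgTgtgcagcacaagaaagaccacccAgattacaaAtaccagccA
Sox10: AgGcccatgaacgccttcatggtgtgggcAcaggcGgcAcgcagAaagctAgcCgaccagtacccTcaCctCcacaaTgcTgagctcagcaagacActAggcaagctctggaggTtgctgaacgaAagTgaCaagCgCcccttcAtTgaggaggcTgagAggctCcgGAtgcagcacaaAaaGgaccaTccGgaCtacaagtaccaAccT
Sox6: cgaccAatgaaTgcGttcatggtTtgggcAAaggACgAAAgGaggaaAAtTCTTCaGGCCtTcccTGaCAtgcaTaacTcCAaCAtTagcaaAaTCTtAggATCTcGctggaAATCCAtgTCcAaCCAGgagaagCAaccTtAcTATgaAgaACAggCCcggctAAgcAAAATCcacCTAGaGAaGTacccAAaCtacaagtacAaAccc
Sox18: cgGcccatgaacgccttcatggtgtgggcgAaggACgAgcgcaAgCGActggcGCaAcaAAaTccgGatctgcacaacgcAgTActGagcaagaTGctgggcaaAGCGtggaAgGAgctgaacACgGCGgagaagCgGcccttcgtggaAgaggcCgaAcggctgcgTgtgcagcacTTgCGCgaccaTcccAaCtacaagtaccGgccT
Sox2: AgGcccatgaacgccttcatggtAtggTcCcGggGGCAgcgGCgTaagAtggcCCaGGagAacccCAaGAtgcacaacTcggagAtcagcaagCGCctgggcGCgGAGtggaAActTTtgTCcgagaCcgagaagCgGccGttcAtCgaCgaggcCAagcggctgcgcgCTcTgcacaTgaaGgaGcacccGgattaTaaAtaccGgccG
The Sox9 window lies at chr11:112782903-112783905 on the plus strand and spans exons 1 and 2. The Sox8 window at chr17:25568964-25570222 and the Sox18 window at chr2:181670887-181671281, both on the minus strand, also span exons 1 and 2. The Sox10 window at chr15:79159307-79163401 spans exons 3 and 4, and the Sox6 window at chr7:115486655-115489762 spans exons 14 and 15, both on the minus strand. Sox2 has 1 exon, and its window lies at chr3:34650548-34650757 on the plus strand. Against Sox9, the window differed at 29 bases in Sox8, 35 in Sox10, 50 in Sox18, 59 in Sox2 and 92 in Sox6. Over all members, the 6 pairs within a subgroup shared 82.4 to 91.0% of bases and the 39 pairs between subgroups shared 52.9 to 76.7%. The longest stretch found identical in any pair of transcripts was 48 bases, between Sox4 and Sox11, and within SoxE it was 44 bases, between Sox9 and Sox10. The read length is not given in the sources used here, and whether reads within such stretches were shared between members was not tested.

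Summed over the 20 Sox genes, the level was nearly the same in both pools, at 86.6 FPKM in JAK2 V617F and 87.2 FPKM in control cells, but its make-up differed. The chondrogenic and glial SoxE subgroup held 19.3% of the sum in JAK2 V617F and 9.86% in control cells. The endothelial SoxF subgroup held 0.914% in JAK2 V617F and 8.41% in control cells. The neural SoxB1 subgroup held 0.762% in JAK2 V617F and 5.28% in control cells. The SoxF share came from Sox18 and Sox7, and the SoxB1 share from Sox2 and Sox1. Each of these genes was low and reached 1 FPKM in control cells only, at an estimated 29 to 41 fragments there. SoxD was the largest subgroup in both pools, with 52.7% in JAK2 V617F and 53.9% in control cells, and SoxC held 25.3% in JAK2 V617F and 22.0% in control cells. These shares are taken within a library and do not depend on how the libraries are scaled to each other.

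**Figure D1:**
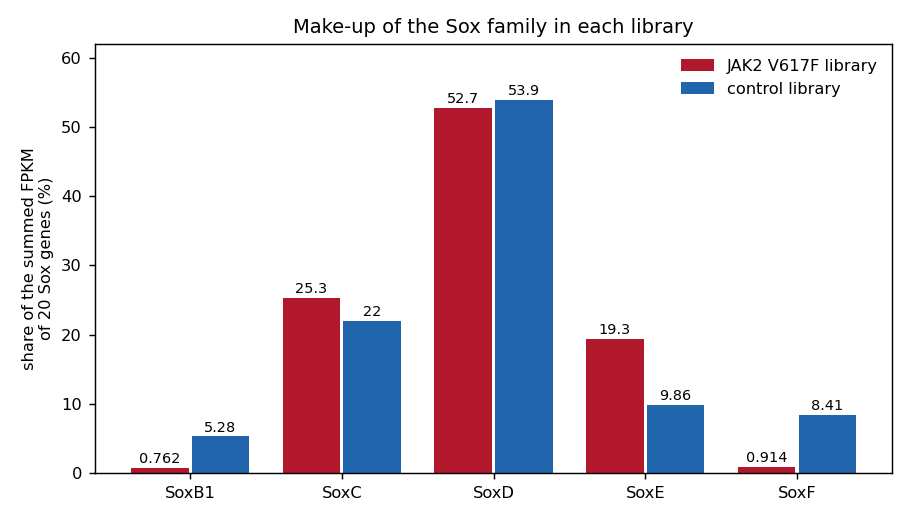
Share of the summed FPKM of 20 Sox genes (vertical axis, percent) held by each of 5 subgroups in the JAK2 V617F library (red) and the control library (blue), 1 library each with no error bars. SoxE is larger in JAK2 V617F (19.3 against 9.86% in control cells), while SoxF (0.914 against 8.41%) and SoxB1 (0.762 against 5.28%) are smaller. The SoxF and SoxB1 shares rest on Sox18, Sox7, Sox2 and Sox1, low genes that each reached 1 FPKM in control cells only.

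Of the 10 genes, 8 reached 1 FPKM in at least 1 library, and Sox11 and Sox17 were listed at 0 in both. Among those 8, Sox9 was called higher in JAK2 V617F cells, and Sox2 and Sox18 were called lower. Over all 15118 rows that reached 1 FPKM, 13.8% were called higher and 11.4% lower, so 1 higher and 2 lower of 8 do not set the Sox genes apart by number. With both libraries set to the same upper quartile, the shares over all rows were 18.4% higher and 8.51% lower. The median log2 ratio was 0.01 for the 8 Sox genes and -0.03 for all rows. Among rows whose higher value lay between 2 and 15 FPKM, the range of most of these genes, 17.8% were called higher and 13% lower, a band chosen after the data were seen. Sox2 and Sox18 passed the filter through the control library alone, so a gene that entered this way had to be lower in JAK2 V617F cells.

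**Figure D2:**
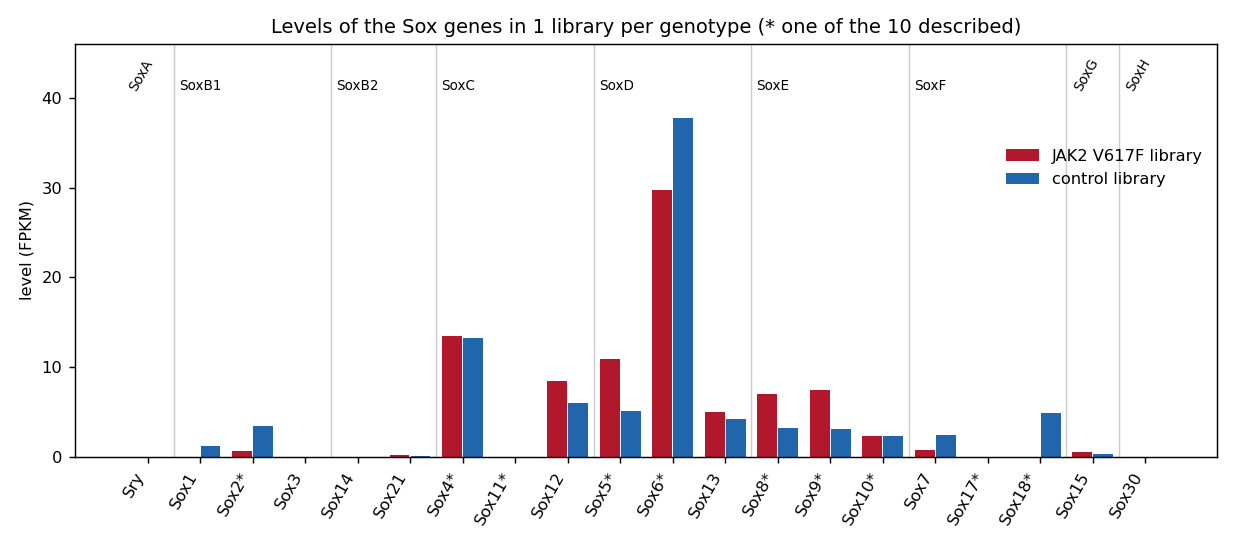
Level (FPKM, vertical axis) of all 20 Sox genes, grouped by subgroup, in the JAK2 V617F library (red) and the control library (blue), with 1 library each and no error bars. Asterisks mark the 10 genes described. Sox6 is the highest in both (29.8 FPKM in JAK2 V617F and 37.7 FPKM in control cells), and Sox9, Sox8 and Sox5 are higher in JAK2 V617F cells.

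The order of levels within each library was headed by the same 3 members. In JAK2 V617F cells it ran from Sox6 (29.8 FPKM) through Sox4 (13.5), Sox5 (10.9), Sox9 (7.41), Sox8 (7.04) and Sox10 (2.3) to Sox2 (0.66), with Sox18 listed at 0. In control cells it ran from Sox6 (37.7 FPKM) through Sox4 (13.2), Sox5 (5.13), Sox18 (4.88), Sox2 (3.43), Sox8 (3.19) and Sox9 (3.11) to Sox10 (2.3). Among 20069 protein-coding rows, Sox6 stood at percentile 84.4 in JAK2 V617F and 86.5 in control cells. Sox10 stood at percentile 47.3 in JAK2 V617F and 48.6 in control cells. With 1 library each, neighbours in these orders have no measured spread.

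Sox9 and Sox8 were both more than 2-fold higher in JAK2 V617F cells as plain FPKM ratios, whereas Sox10, the third SoxE gene, was level. Sox9, the transcription factor that specifies chondrocytes, was at 7.41 FPKM in JAK2 V617F and 3.11 FPKM in control cells (log2 ratio 1.03). Its row spans chr11:112782224-112787760, the same locus as its 1 annotated transcript of 4135 nt, which puts the values at about 181 fragments in JAK2 V617F and 65 in control cells. The FPKM ratio was 2.38, with an exact (Clopper-Pearson) 95% interval of 1.78 to 3.21 that covers counting error only, with amplified copies treated as independent molecules. Sox8, the closest relative of Sox9 in this HMG box window, was at 7.04 FPKM in JAK2 V617F and 3.19 FPKM in control cells (0.94). It has 3 coding transcripts, and the counting interval of its ratio of 2.21 was 1.57 to 3.15 at the longest and 0.785 to 7.29 at the shortest. The quotient of Sox8 to Sox9 was 0.951 in JAK2 V617F and 1.02 in control cells, so these genes kept nearly the same proportion. Sox10, the identity factor of Schwann cells and melanocytes, was at 2.30 FPKM in JAK2 V617F and 2.30 FPKM in control cells (-0.00). At its longest transcript this is about 37 fragments in JAK2 V617F and 32 in control cells, and the ratio of 0.997 had a counting interval of 0.604 to 1.65. At its shortest coding transcript the interval was 0.359 to 2.83, which reaches past 2-fold in both directions. The quotient of Sox10 to Sox9 was 0.310 in JAK2 V617F and 0.741 in control cells. The minus-strand Sox8 gene overlaps the antisense gene 2810468N07Rik, which was at 0.172 FPKM in JAK2 V617F and listed at 0 in control cells. Whether counting used strand is not stated by any source here, so reads of such pairs cannot be told apart.

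The SoxD genes had ratios on opposite sides of 1. Sox5, which lacks an activation domain and binds beside Sox9 at cartilage enhancers, was at 10.9 FPKM in JAK2 V617F and 5.13 FPKM in control cells (0.96). Its 7 coding transcripts span 614 to 7243 nt, and the counting interval of its ratio of 2.13 was 1.80 to 2.53 at the longest and 1.07 to 4.52 at the shortest. Sox6, its cartilage partner and a repressor of embryonic globin genes in red cell precursors, was at 29.8 FPKM in JAK2 V617F and 37.7 FPKM in control cells (-0.33). Its ratio of 0.790 had a counting interval of 0.737 to 0.847 at the longest of its 10 coding transcripts, 8668 nt, and of 0.470 to 1.32 at the shortest. The quotient of Sox5 to Sox6 was 0.367 in JAK2 V617F and 0.136 in control cells. The quotient of Sox9 to Sox6 was 0.249 in JAK2 V617F and 0.0825 in control cells, so Sox5 and Sox9 were both higher relative to Sox6 in JAK2 V617F cells. Sox13, the remaining SoxD gene, was at 4.98 FPKM in JAK2 V617F and 4.23 FPKM in control cells (0.19). The file gives 1 value per gene, so long and short forms of Sox5 or Sox6 were not separated, and Sox5 overlaps the antisense gene Sox5os1.

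**Figure D3:**
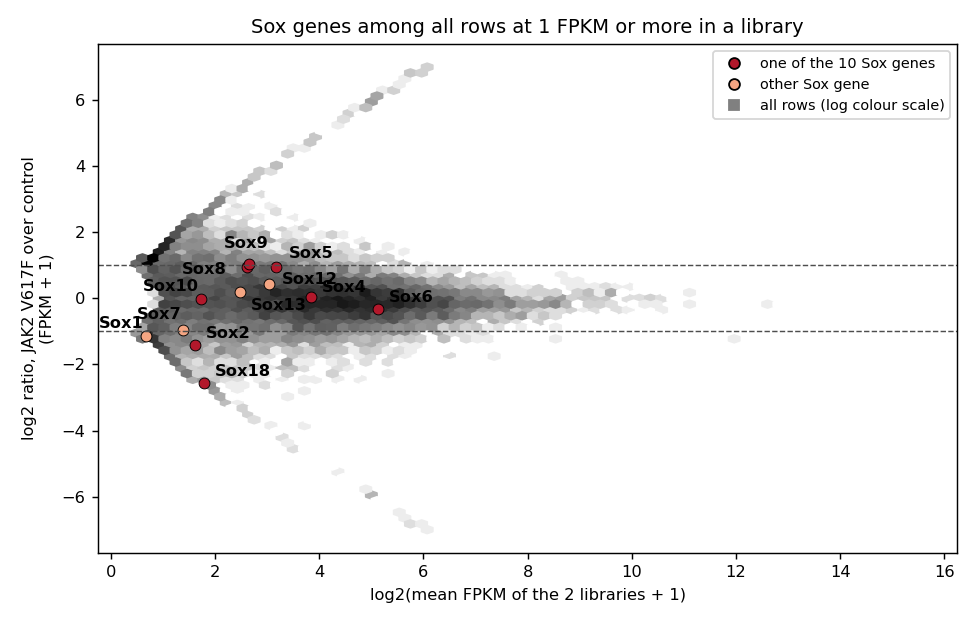
Log2 ratio of JAK2 V617F over control (vertical axis, FPKM + 1) against log2(mean FPKM + 1) for rows at 1 FPKM or more in a library (grey, log colour scale), with Sox genes marked and dashed lines at 2-fold. Of 15118 such rows, 175 lie beyond 7 in either direction and are not drawn. Sox9, Sox5 and Sox8 lie close to the upper line at 1.03, 0.96 and 0.94, while Sox18 and Sox2 lie below the lower line at -2.56 and -1.42.

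Sox5 and Sox8 lay close to each other in log2 ratio, so their promoters are shown, from 250 bases before to 50 after the start annotated by RefSeq (GRCm38.p6). Upper case marks matches on either strand to the SOX cores, to the CCAAT box and to the GC box. Of the 10 genes, 6 had a promoter entry, and Sox9, Sox10, Sox17 and Sox18 had none.
Sox8: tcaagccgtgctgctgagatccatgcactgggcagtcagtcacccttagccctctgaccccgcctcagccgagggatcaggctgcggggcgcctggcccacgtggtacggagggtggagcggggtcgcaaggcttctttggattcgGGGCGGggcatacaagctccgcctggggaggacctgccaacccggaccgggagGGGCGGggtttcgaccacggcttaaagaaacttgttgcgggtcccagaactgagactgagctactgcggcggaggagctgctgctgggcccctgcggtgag
Sox5: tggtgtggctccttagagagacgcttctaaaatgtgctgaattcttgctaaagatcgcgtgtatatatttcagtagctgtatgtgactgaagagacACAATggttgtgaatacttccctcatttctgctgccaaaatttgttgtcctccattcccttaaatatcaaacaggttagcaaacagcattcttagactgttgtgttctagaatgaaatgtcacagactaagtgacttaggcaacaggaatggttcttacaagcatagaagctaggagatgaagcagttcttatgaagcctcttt
The Sox8 window, chr17:25570637-25570936 on the minus strand, held 2 GC boxes and was 66.3% G and C, against a median of 52.7% over 32851 promoters. The Sox5 window, chr6:143947057-143947356 on the minus strand, was 39.7% G and C, held 1 SOX core and no GC box, and lies at the start of shorter transcripts rather than of the longest one. The GC box, spelled GGGCGG, occurred in 35.7% of all promoters. The SOX core spelled ACAAT occurred in 31.0% of them, and the form spelled ACAAAG in 18.7%. The CCAAT box, with these letters, occurred in 37.4%, and it can overlap a SOX core read on the opposite strand. The Sox5 and Sox8 windows thus shared none of the marked motifs, and a match or its absence describes these letters only.

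Cartilage genes that SoxE and SoxD factors are known to act on were more often called higher than lower in JAK2 V617F cells. Of 17 measured targets, 8 were called higher and 2 lower, beside 13.8% higher and 11.4% lower over all rows, so the lower count is near the share of all rows. Matn3 and Scin among the higher and Epyc among the lower reached 1 FPKM in 1 library only, which fixed their side. The median of their log2 ratios was 0.92, beside -0.03 for all rows, and was 0.43 over 19 genes with no filter on low values. Matn3, a cartilage matrix adaptor, was at 8.14 FPKM in JAK2 V617F and 0.333 FPKM in control cells (2.78). Comp, cartilage oligomeric matrix protein, was at 39.5 FPKM in JAK2 V617F and 9.19 FPKM in control cells (1.99). Scin, an actin-severing protein, was at 4.28 FPKM in JAK2 V617F and 0.448 FPKM in control cells (1.87). These and Chad, which encodes a collagen-binding leucine-rich protein at 313 FPKM in JAK2 V617F and 102 FPKM in control cells (1.61), were the targets with the largest differences. The lower targets were Epyc, at 0.55 FPKM in JAK2 V617F and 2.92 FPKM in control cells (-1.34), and Col11a2, at 26.0 FPKM in JAK2 V617F and 59.2 FPKM in control cells (-1.16). Col2a1, the classical direct target of Sox9, was within 2-fold at 238 FPKM in JAK2 V617F and 178 FPKM in control cells (0.42), and the quotient of Sox9 to Col2a1 was 0.0311 in JAK2 V617F and 0.0175 in control cells. The list of chondrocyte markers, which shares 8 genes with the targets, had 8 of 11 measured members called higher and 1 called lower. Its summed level was 2285 FPKM in JAK2 V617F and 368 FPKM in control cells, led by the lubricin gene Prg4 at 1234 FPKM in JAK2 V617F and 20.1 FPKM in control cells. Its other large log2 ratios, beside that of Matn3, were 3.80 for Cytl1 and 2.06 for Col10a1. Matn1 was listed at 0 in both pools. Ihh, the marker called lower, was listed at 0 in the JAK2 V617F pool and reached 1 FPKM only in control cells, which fixed its side. Among osteoblast markers, 0 of 15 were called higher and 4 lower, with sums of 7043 FPKM in JAK2 V617F and 13135 FPKM in control cells, and with the largest log2 ratios for Dmp1 (-1.89), Bglap (-1.60), Ifitm5 (-1.46) and Sp7 (-1.19). The part of chondrocyte content in the Sox5, Sox8 and Sox9 values was not tested.

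Glial genes that Sox10 acts on were called higher or lay within 2-fold, while Sox10 itself was level. Of 15 measured genes, 4 were called higher and 0 were called lower, beside 13.8% higher and 11.4% lower over all rows. Mal and Pou3f1, among the 4, reached 1 FPKM only in JAK2 V617F cells. Their log2 ratios had a median of 0.55. Mbp, which encodes myelin basic protein, was at 4872 FPKM in JAK2 V617F and 624 FPKM in control cells (2.96). S100b, a calcium-binding protein of glia, was at 76.2 FPKM in JAK2 V617F and 22.4 FPKM in control cells (1.72), and Mal, a membrane protein of myelin, at 3.5 FPKM in JAK2 V617F and 0.648 FPKM in control cells (1.45). The POU factor gene Pou3f1 was at 1.26 FPKM in JAK2 V617F and listed at 0 in control cells. Erbb3, a Schwann cell receptor, was within 2-fold at 1.58 FPKM in JAK2 V617F and 1.38 FPKM in control cells (0.12). Mbp is also transcribed in blood cells and S100b in chondrocytes, and the part of glial content in these values was not tested.

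Among the SoxF genes, Sox18 was called lower in JAK2 V617F cells, Sox7 fell just short of that call and Sox17 was listed at 0 in both pools. Sox18, a factor of blood and lymphatic endothelium, was listed at 0 in JAK2 V617F cells, against 4.88 FPKM in control cells (-2.56, a value set by the pseudocount). The gene lies at chr2:181669836-181671640 and has 1 transcript of 1620 nt. The control value corresponds to about 38 fragments, with an exact Poisson 95% interval of 26.6 to 51.7, and a count of 0 allows up to 0.334 FPKM (3 fragments) in the JAK2 V617F library. A band of 4 to 6 FPKM in control cells, which holds the Sox18 value, was chosen after the data were seen. Of its 1117 rows, 3.31% were listed at 0 in JAK2 V617F cells, and this share is no test of Sox18. Sox7, an endothelial relative, was at 0.792 FPKM in JAK2 V617F and 2.46 FPKM in control cells (-0.95). This is about 15 fragments in JAK2 V617F and 41 in control cells, and the ratio of 0.322 had a counting interval of 0.166 to 0.592. Sox18 and Sox7 each reached 1 FPKM in control cells only, which fixed their side. Sox17, which acts in endoderm, fetal stem cells and arterial endothelium, was listed at 0 in both pools. At its longest transcript, 3 fragments would be 0.158 FPKM in JAK2 V617F and 0.184 FPKM in control cells. At its shortest coding transcript, 3 fragments would be 1.98 FPKM in JAK2 V617F and 2.31 FPKM in control cells, above the filter of 1 FPKM.

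The values of other endothelial transcripts lay in both directions. Of 17 measured vascular targets and endothelial markers, a list that includes Sox7, 4 were called higher and 1 was called lower. Over all rows, 13.8% were called higher and 11.4% lower. The log2 ratios of the 17 genes had a median of 0.35. With no filter on low values the median over 22 genes was 0.20. Emcn, Robo4 and Stab2, 3 of the 4 called higher, reached 1 FPKM only in JAK2 V617F cells, so the filter fixed their side. The list summed to 84.2 FPKM in JAK2 V617F and 66.8 FPKM in control cells. Emcn, an endothelial sialomucin, was at 5.15 FPKM in JAK2 V617F and 0.196 FPKM in control cells (2.36). Robo4, a guidance receptor of endothelium, was at 2.51 FPKM in JAK2 V617F and 0.239 FPKM in control cells, and the ETS factor gene Erg at 12.5 FPKM in JAK2 V617F and 4.73 FPKM in control cells (1.24). Plvap, a protein of endothelial diaphragms, was the member called lower, at 1.89 FPKM in JAK2 V617F and 8.48 FPKM in control cells (-1.71). Cdh5, the junctional cadherin of endothelium, was level at 4.66 FPKM in JAK2 V617F and 4.94 FPKM in control cells (-0.07). The quotient of Sox7 to Cdh5 was 0.170 in JAK2 V617F and 0.498 in control cells. Such a quotient depends on the gene chosen. Kdr (-0.77) and Tek (-0.62) had log2 ratios nearer to that of Sox7, while 12 of the 17 genes lay above 0 and 5 below. Lyve1 was listed at 0 in both pools, and Cldn5 and Stab2 in control cells. The part of endothelial content in the Sox18 and Sox7 values was not tested.

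The detected SoxB1 genes, Sox2 and Sox1, were both lower in JAK2 V617F cells. Each reached 1 FPKM in control cells only, which fixed its side. Sox2, a factor of pluripotent and neural progenitor cells, was at 0.660 FPKM in JAK2 V617F and 3.43 FPKM in control cells (-1.42). On its single transcript of 2057 nt this is about 8 fragments in JAK2 V617F and 34 in control cells, and the ratio of 0.192 had a counting interval of 0.0756 to 0.427. Sox1, which is co-expressed with Sox2 in early neural cells, was listed at 0 in JAK2 V617F and at 1.18 FPKM in control cells, and Sox3 was listed at 0 in both. Sox2 lies inside the long non-coding gene Sox2ot on the same strand, and the table gives both the locus chr3:34104438-34682619. Sox2ot had the opposite order, at 1.85 FPKM in JAK2 V617F and listed at 0 in control cells. How reads were divided between these genes was not tested.

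A neural list that includes Sox1 held genes called in both directions. Of 7 measured genes, 3 were called higher and 2 lower, beside 13.8% higher and 11.4% lower over all rows. Each of the 5 called genes reached 1 FPKM only in the library where it was high, which fixed its side. The log2 ratios had a median of -0.55, and of 0 over all 17 genes with no filter on low values. Snap25 and Syt1, genes of synaptic vesicle release, were listed at 0 in control cells, while in JAK2 V617F cells Snap25 was at 6.63 FPKM and Syt1 at 3.72 FPKM. Lhx2, a LIM homeobox gene of forebrain and eye, was at 0.419 FPKM in JAK2 V617F and 2.57 FPKM in control cells (-1.33). The neuronal markers Tubb3 and Elavl3 stayed below 1 FPKM in both pools, and Elavl4 and Neurog2 were listed at 0 in both.

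The SoxC gene Sox4 was level between the pools. Sox4, a factor of progenitor cells that is required for B cell development, was at 13.5 FPKM in JAK2 V617F and 13.2 FPKM in control cells (0.03). On its 4795 nt transcript this is about 386 fragments in JAK2 V617F and 324 in control cells, and the ratio of 1.02 had a counting interval of 0.878 to 1.19. Sox12, a close relative, was at 8.40 FPKM in JAK2 V617F and 5.96 FPKM in control cells (0.43). Sox11, a SoxC gene of embryonic and neural cells, was listed at 0 in both pools. Its row spans only chr12:27340697-27342709, while the GENCODE vM21 transcript has 8311 nt, most of which lies outside the row. The Sox4 row spans chr13:28943048-28953713, beyond the end of the transcript, and the gene overlaps Gm26735, a lincRNA gene on the opposite strand.

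Early B cell markers, set beside Sox4 for its role in that lineage, were called no more often in either direction than all rows (13.8% higher and 11.4% lower). Of 13 measured, Vpreb3 was called higher at 22.5 FPKM in JAK2 V617F and 8.54 FPKM in control cells (1.30), and Vpreb1 was called lower at 3.17 FPKM in JAK2 V617F and 7.84 FPKM in control cells (-1.08); both encode surrogate light chain or associated proteins. Igll1, another surrogate light chain gene, had a log2 ratio of -0.61 and Cd72, which encodes a B cell surface protein, had one of -0.51. The median log2 ratio was 0.01, near the -0.03 of all rows, and the list summed to 231 FPKM in JAK2 V617F and 232 FPKM in control cells. Of 8 measured SoxC targets, 2 were called higher and 1 lower, with a median of 0.21. Ass1, an enzyme of arginine synthesis, was at 30.4 FPKM in JAK2 V617F and 13.5 FPKM in control cells (1.12), and Stmn2, a tubulin-binding protein, at 1.26 FPKM in JAK2 V617F and 0.103 FPKM in control cells (1.03). Stmn2 reached 1 FPKM only in JAK2 V617F cells, which fixed its side. Tbrg4 had a log2 ratio of 0.68. Tead2, a Hippo pathway factor, was the lower one at 2.40 FPKM in JAK2 V617F and 82.2 FPKM in control cells (-4.61).

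Erythroid markers are set beside Sox6 for its role in red cell precursors. Of 15 measured erythroid markers, 3 were called lower in JAK2 V617F cells and 1, Hba-x, was called higher. Over all rows, 11.4% were called lower and 13.8% higher. Hba-x reached 1 FPKM only in JAK2 V617F cells, which fixed its side. The median log2 ratio of the erythroid markers was -0.39, beside -0.33 for Sox6. The stromal genes Cxcl12 (-0.36) and Lepr (-0.37) also had log2 ratios near that of Sox6. The 15 measured stromal markers had a median of -0.16 and lay between -0.67 and 1.56. Single erythroid markers lay between -1.53 and 2.31. The erythroid markers summed to 1831 FPKM in JAK2 V617F and 3357 FPKM in control cells. Klf1, an erythroid master regulator, was at 155 FPKM in JAK2 V617F and 187 FPKM in control cells, and the quotient of Sox6 to Klf1 was 0.192 in JAK2 V617F and 0.202 in control cells. The lower markers were adult globin genes, Hbb-b1 at 379 FPKM in JAK2 V617F and 1096 FPKM in control cells, Hbb-b2 at 170 FPKM in JAK2 V617F and 442 FPKM in control cells and Hba-a1 at 71.8 FPKM in JAK2 V617F and 159 FPKM in control cells. Hba-a2, another adult globin gene, had the opposite order, at 52.8 FPKM in JAK2 V617F and 28.6 FPKM in control cells (0.86). These genes have near-identical copies, so single values are uncertain. The embryonic globin genes, some of which Sox6 is known to repress, were low. Hbb-y was listed at 0 in both pools, Hbb-bh1 was at 0.374 FPKM in JAK2 V617F and listed at 0 in control cells, and Hba-x was at 3.96 FPKM in JAK2 V617F and listed at 0 in control cells. The part of red cell precursors in the Sox6 value was not tested.

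**Figure D4:**
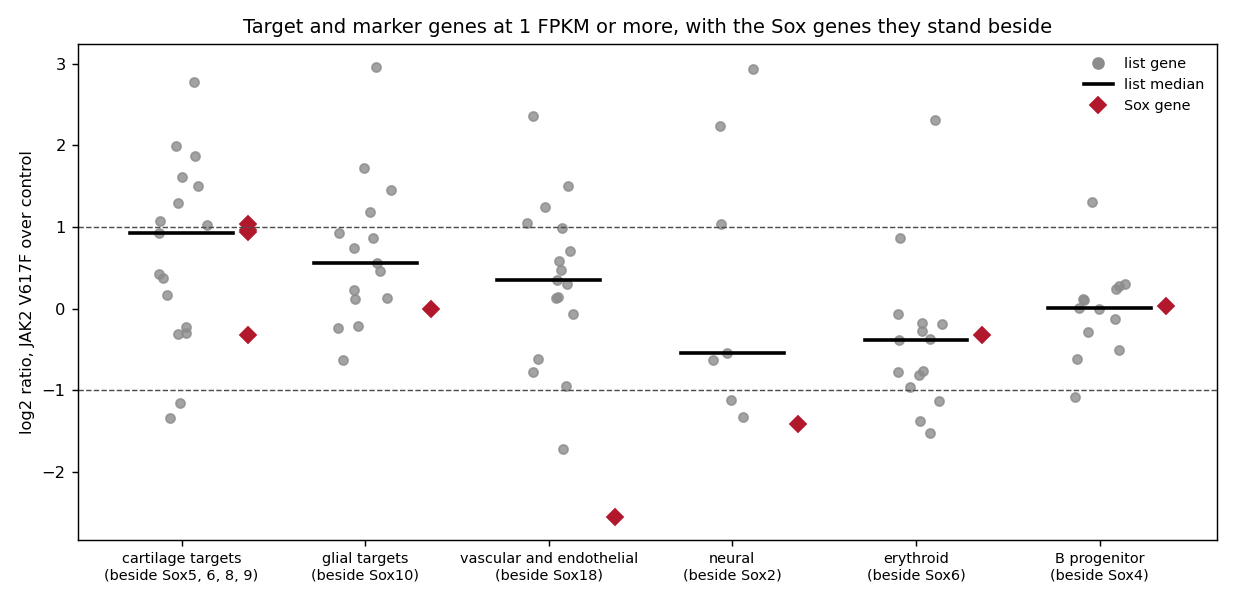
Log2 ratio of JAK2 V617F over control (vertical axis) for the genes of 6 lists at 1 FPKM or more in a library (grey points), their median (black bar) and the Sox genes set beside each list (red diamonds), with dashed lines at 2-fold. The medians are 0.92 for cartilage (0.43 with no filter on low values), 0.55 for glial, 0.35 for vascular, -0.55 for neural, -0.39 for erythroid and 0.01 for B progenitor genes, beside -0.03 for all rows. Sox18 reached 1 FPKM in control cells only, which fixed its side. Its place (-2.56) is set by the pseudocount and was -0.98 with a pseudocount of 5.

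Genes for proteins that act with Sox factors mostly lay within 2-fold. Of 12 measured partners and cofactors, 1, Pou3f1, was called higher and none was called lower, beside 13.8% higher and 11.4% lower over all rows. Pou3f1 reached 1 FPKM only in JAK2 V617F cells, which fixed its side. The log2 ratios of the 12 genes had a median of -0.21. Arid5b, a coactivator of Sox9 in cartilage, was at 8.11 FPKM in JAK2 V617F and 4.32 FPKM in control cells (0.77). Ctnnb1, which encodes beta-catenin, the Wnt effector that Sox9 opposes, was at 95.7 FPKM in JAK2 V617F and 162 FPKM in control cells (-0.75). Mitf, a melanocyte factor activated by Sox10, was at 1.47 FPKM in JAK2 V617F and 0.623 FPKM in control cells (0.61). Of 13 haematopoietic stem and progenitor markers, 6 were called higher and 1 lower, beside 13.8% higher and 11.4% lower over all rows. Of those 6, 4 reached 1 FPKM only in JAK2 V617F cells, which fixed their side. The 13 markers summed to 244 FPKM in JAK2 V617F and 304 FPKM in control cells. Large log2 ratios among them were 3.35 for Mecom, 1.82 for Procr and -1.21 for Ly6a. Of 11 leukocyte markers, 2 were called higher and 0 lower, which is near the 13.8% called higher over all rows, with sums of 738 FPKM in JAK2 V617F and 570 FPKM in control cells. Their largest log2 ratios were 1.11 for Tyrobp, 1.03 for Cd52, 0.82 for Cd53 and 0.69 for Fcer1g. The remaining Sox genes were near the edge of detection. Sox15 was at 0.589 FPKM in JAK2 V617F and 0.342 FPKM in control cells, Sox21 was below 0.5 FPKM in both pools, and Sox14, Sox30 and Sry were listed at 0 in both.

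The calls near the threshold depended on the setting. Sox5 and Sox8 fell just short of 2-fold with a pseudocount of 1 and passed it with a pseudocount of 0.1 (1.08 for Sox5 and 1.12 for Sox8) and under each of 3 rescalings of the libraries. Sox9 was past 2-fold under those settings too, and was at 0.61 with a pseudocount of 5. Sox2 and Sox18 were called lower with a pseudocount of 1 or 0.1 and under the 3 rescalings, but not with a pseudocount of 5 (-0.58 for Sox2 and -0.98 for Sox18). Over the alternatives, Sox4 lay between 0.02 and 0.28, Sox10 between -0.00 and 0.19, and Sox6 between -0.34 and -0.07.

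**Figure D5:**
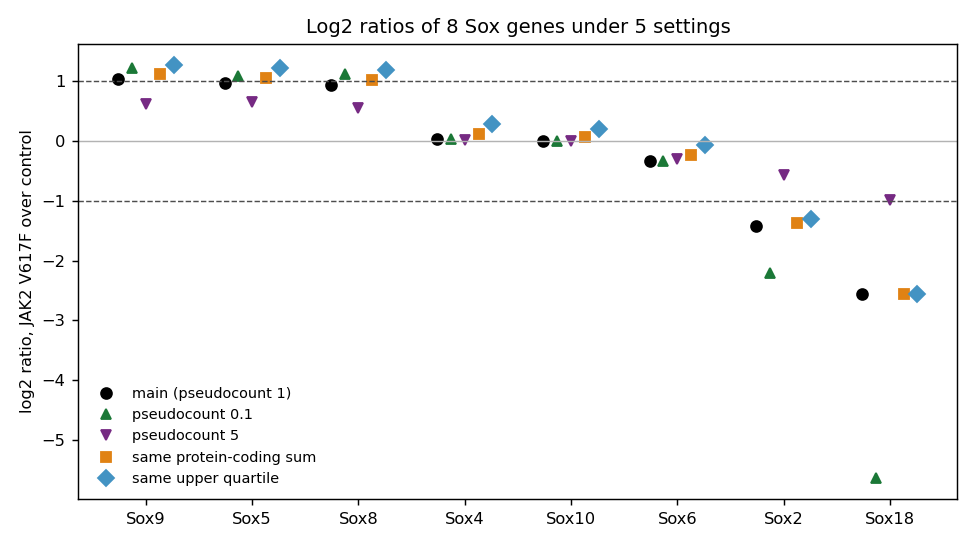
Log2 ratio of JAK2 V617F over control (vertical axis) of the 8 Sox genes at 1 FPKM or more under 5 settings (marker shapes), with dashed lines at 2-fold. Sox9, Sox5 and Sox8 lie on either side of the upper line depending on the setting, and the Sox18 value, from a gene listed at 0 in JAK2 V617F cells, moves with the pseudocount between -5.64 and -0.98.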

How the data were processed

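RNA from sorted marrow cells was amplified and sequenced as 2 libraries, 1 per genotype, per the labels' protocols. The deposited table gives 1 FPKM value per gene and library, computed by the authors; the submitters' processing notes name Cufflinks, TopHat2 2.0.7, Bowtie2 2.0.6, cutadapt 1.2.1 and the build GRCm38, without roles; annotation release, strand setting and between-library scaling are not stated in the sources used. Loci start from 1 here. Of the rows, 401 name several genes and were left out. FPKM values are not counts, so no test was made: log2 ratios used a pseudocount of 1 FPKM, a filter of 1 FPKM in at least 1 library and a 2-fold call. The value of 1 fragment (0.162 FPKM at 1 kb in the JAK2 V617F library, 0.189 in the control library) was estimated from 3822 genes with 1 transcript after subtracting 160 nt, a length picked to make the steps sharpest; 83.9% of genes below 3.5 estimated fragments in the JAK2 V617F library and 82.2% in the control library then lay within 0.2 of a whole number. That estimate was tested only on simulated whole fragments built with the same length formula. Such data cannot show whether the formula holds for the authors' values. Fragment intervals are approximate. All 18 housekeeping genes checked were above 0 in both libraries. Symbols of 73.7% of rows matched RefSeq GRCm38.p6 gene types. HMG box windows were compared as nucleotides, since no protein sequences were used. The Sox genes, the 15 gene lists (219 of 229 entries with a row of their own) and the tests were chosen with earlier results of these data known. All 10 Sox genes are named, other Sox genes at 0.5 FPKM or more, and the 4 genes of largest log2 ratio in each list, except where a gene is not reported here; other genes were named for their known role after their values were seen. Python 3.11.15, pandas 2.3.3, numpy 2.4.6, scipy 1.17.1 and matplotlib 3.10.9 were used.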

Additional observations from a re-analysis of the deposited data

How the results depend on the processing

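Every difference rests on 1 library per genotype, so no alternative measures biological spread, and no library could be left out. No paired analysis was possible because each group has 1 library. None of the Sox genes called in any of 9 alternatives or as reported changed sign. The count of Sox genes called higher, 1 as reported, was 3 with a pseudocount of 0.1, under each of the 3 rescalings (same protein-coding sum, median ratio, same upper quartile) and with a 1.5-fold call, and 0 with a pseudocount of 5 or a 3-fold call. The count called lower, 2 as reported, was 0 with a pseudocount of 5, 0 when 5 FPKM was required, which leaves out Sox2 and Sox18, and 1 with a 3-fold call. The median log2 ratio, 0.01 as reported, was 0.94 when 5 FPKM was required, since 5 genes remain. The upper quartile rescaling moved the median of all rows to 0.23. Of 69 ratios of single Sox genes under the alternatives, 54 kept their side of the threshold and 15 crossed it. Of 378 list counts and medians, 286 stayed close and 92 moved, counts by over 1.5 times or medians by over 0.25. Few fragments limit the precision of the low Sox genes.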
